A study of Rattus norvegicus with 28 samples.

Results

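The regions described here are the stretches of rat chromatin that were more accessible in dorsal root ganglia (DRG) after nerve injury. Of 56810 consensus accessible regions, 426 (0.750%) had a two-sided, unadjusted limma p below 0.001 and a higher mean in 6 libraries taken after chronic constriction injury (CCI) than in 3 naïve libraries. These 426 regions are called members. The same threshold gave 91 regions (0.160%) that were lower after CCI. The members were chosen by their CCI and naïve values, so every CCI difference below is a description and not a test. After Benjamini-Hochberg adjustment over all regions, 9 members (0.0158% of all regions) had an adjusted p below 0.05, and the median adjusted p of the members was 0.102.

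Chromatin accessibility was measured by ATAC-seq, an assay based on a transposase, in nuclei of the ipsilateral lumbar L4 to L6 DRGs of 1 male Sprague-Dawley rat per library, 12 weeks old. The CCI rats had loose ligatures around the sciatic nerve and were sampled at 14 days, the rats given complete Freund's adjuvant (CFA) in the hind paw were sampled at 48 h, and the naïve rats had neither. There were 6 CCI, 6 CFA and 3 naïve libraries. Rats of the pain models entered the study only if their paw withdrawal threshold had dropped, and no sham group was analysed here. The whole ganglion was used, so a larger share of 1 cell type and a more open region within each cell cannot be told apart. The RNA-seq libraries at hand are 2 CFA libraries, in which 9 of 10 sensory neuron markers could be matched to an Ensembl gene, at 247 to 11580 CPM (counts scaled to a common library total). Markers of glia, macrophages and muscle could not be matched and were not analysed here. Symbols were matched through the study's lists of differentially expressed genes, so a missing match gives no level.

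DRGs hold the cell bodies of the sensory neurons that carry touch, temperature and pain from the limb, together with satellite glia, Schwann cells, endothelial cells and macrophages. Constriction of the sciatic nerve injures the axons of these neurons and serves as a model of neuropathic pain, while CFA inflames the paw and leaves the nerve intact. In ATAC-seq, the Tn5 transposase inserts adapters into DNA that nucleosomes do not cover, and a region with more insertions is read as more accessible. Promoters and enhancers are the usual open regions.

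The values are log2 normalized coverage. They came in a CCI table and a CFA table, each with the same 3 naïve libraries and each normalized on its own. Log2 levels are therefore compared within a table, and percentiles within a library are used across tables. Widths and coordinates are those of the deposited regions on the rat build rn6. CCI replicates 3 to 6 came from 1 sequencing run, and every other library had 2.

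Gene names below are those of the nearest annotated gene in the study's assignment. Such a gene can lie far from the region, and distances were not analysed here. The study cloned 3 of the members in front of a reporter gene, and their primers are shown because they are the deposited sequences that tie a member to its DNA. The 3 lie on chromosomes 7 and 14, and the study assigns them to 3 genes: Mtdh, which codes for metadherin; Rrm2b, a subunit of the ribonucleotide reductase induced by p53; and Arap2, a GTPase-activating protein for Arf. Capitals mark the part that pairs with rat DNA, and the lower case start holds the added restriction site, MluI (acgcgt) in each left primer and BglII (agatct) in each right primer.
Mtdh, chr7:72282656-72283204, left primer: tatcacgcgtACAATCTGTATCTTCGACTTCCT
Mtdh, right primer: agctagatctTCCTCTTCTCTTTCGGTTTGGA
Rrm2b, chr7:76825894-76826308, left primer: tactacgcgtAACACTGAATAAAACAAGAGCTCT
Rrm2b, right primer: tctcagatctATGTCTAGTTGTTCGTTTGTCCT
Arap2, chr14:48665324-48665682, left primer: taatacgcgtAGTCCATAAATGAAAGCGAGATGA
Arap2, right primer: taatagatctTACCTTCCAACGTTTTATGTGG
Each amplified fragment covers its member from end to end.

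Most members were weak regions in naïve ganglia that reached a middle level after CCI. Their median naïve level was 4.19 (quartiles 3.64 and 5.30), compared with 5.44 over all regions. Of the 426 members, 227 (53.3%) lay in the lowest 10% of all regions by naïve level, and 91 (21.4%) lay above the naïve median. Their median level after CCI was 5.37, beside 5.43 over all regions. In percentiles, the median member stood at 7.74 in the naïve mean and at 47.9 in the CCI mean. A low naïve mean and a high CCI mean are what the rule asks for, so these values describe the choice. The regions lost after CCI at the same threshold had a median naïve level of 5.77, with 1 of 91 in the lowest 10%.

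The CCI minus naïve log2 difference of the members ran from 0.65 to 5.64, with a median of 1.20 (quartiles 1.03 and 1.36), against a median of -0.04 over all regions. It exceeded 1 in 334 members and 2 in 5, against 1029 and 7 among all 56810 regions. In 419 members every CCI library was above every naïve library, a pattern found in 3.85% of all regions. In 7 members the groups overlapped. The 5 member differences above 2 ran from 2.09 upwards, and the next largest among the members was 1.93. Of these 5, 4 lie side by side on chromosome 8, and the fifth, named after its value was seen, is the 216 bp region chr2:197345755-197345971.

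The median width of the members was 452 bp (quartiles 341 and 640), against 549 bp (372 and 847) over all regions. A lower width than that of all regions was not particular to the members, since the regions lost after CCI had a median of 422 bp. The share of regions that were members was 0.70% among those of up to 250 bp, 1.065% among those over 250 to 500 bp wide, 0.41% at 750 to 1000 bp and 0.38% at 1000 to 1500 bp. It was 0.99% in the widest class, above 1500 bp, which held 16 members. Width and naïve level are not independent: in the lowest 10% of regions by CFA level, a level the rule did not use, the median width was 274 bp, and in the highest 10% it was 1199 bp. The lowest 10% by CFA level held 154 members (2.71% of its regions), the next 59, and the highest 10% held 29 (0.51%). The 2 narrowest members were chr1:147393306-147393489, 183 bp wide, and chr13:19406606-19406795, 189 bp wide. The 2 widest were chr2:161574589-161578303, 3714 bp wide, and chr18:41907819-41911294, 3475 bp wide.

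The narrowest and the widest member differed in level as well as in width. The narrowest had naïve values of 3.14, 3.73 and 3.41 and CCI values from 3.93 (median 4.57) to 4.81. The widest had naïve values of 7.99, 8.45 and 8.49 and CCI values from 8.82 (median 9.67) to 9.87. Their CCI minus naïve differences were 0.99 ± 0.23 (SE) and 1.18 ± 0.24. The second narrowest, chr13:19406606-19406795, had 1.47 ± 0.24, and the second widest, chr18:41907819-41911294, had 1.29 ± 0.24. All of them had to pass the same p threshold, so these values are no test of a link between width and difference.

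**Figure D1:**
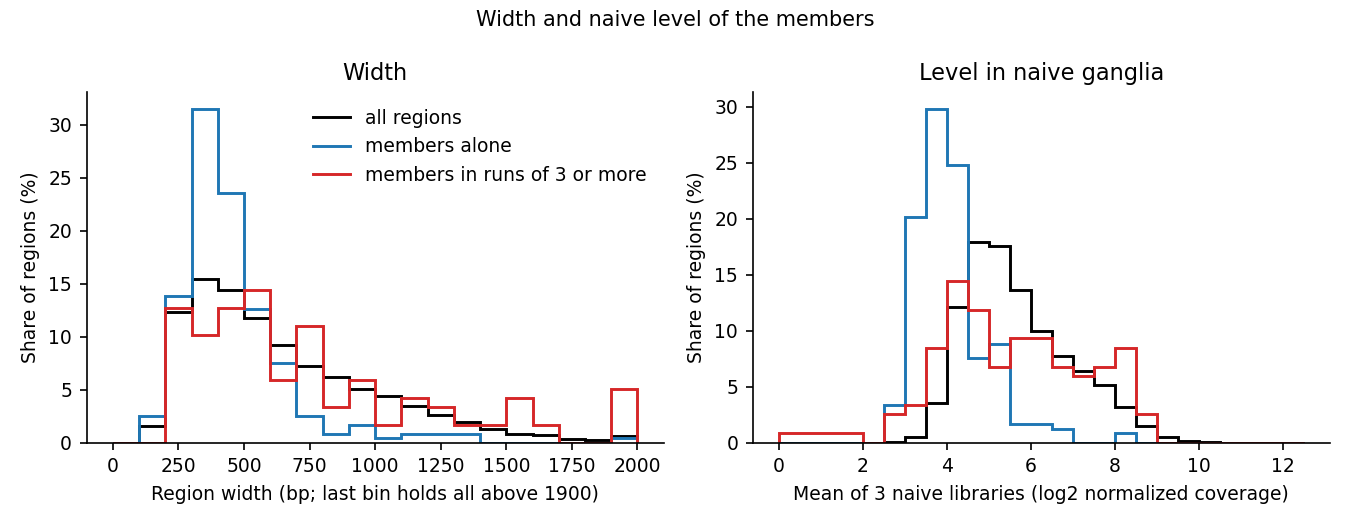
Share of regions (%) by width in bp (left) and by the mean of the 3 naïve libraries in log2 normalized coverage (right), for all regions (black), members that lie alone (blue) and members in runs of 3 or more (red). Members alone peak at 300 to 400 bp and at a naïve level of 3.5 to 4, while members in runs spread across the range of all regions.

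Members were unevenly spread along the genome. With a gap of at most 100 kb taken as close, 188 of 426 members (44.1%) had another member close by, in 35 pairs and 21 runs of 3 or more, and 238 lay alone. At 10 kb, 63 members had another member close by, and at 1 Mb 263. Of the 813 regions directly next to a member on their chromosome, 49 (6.03%) were members themselves, beside 0.750% of all regions. A median of 32 other regions lay within 500 kb of a member (quartiles 16.2 and 55), against 31 (20 and 44) over all regions. The closest region was at a median of 5772 bp from a member, against 8498 bp over all regions. Members started within the first 5 Mb of a chromosome in 53 cases (12.4%), against 4.14% of all regions.

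By chromosome, the share of regions that were members was highest on chromosome 2 (63 of 4772, 1.32%), chromosome 9 (33 of 2580, 1.28%) and chromosome 1 (80 of 6728, 1.19%). It was lowest on chromosome 10 (6 of 3421, 0.18%), and none of the 11 regions on the Y chromosome was a member. Chromosome 1 owed its place to 1 run of 35 members, without which its share was 0.67%.

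The 238 members alone and the 118 members in runs differed in width and naïve level. Members alone had a median width of 408 bp and a median naïve level of 3.95, and 166 of them (69.7%) lay in the lowest 10% by naïve level. Members in runs had a median width of 598 bp and a median naïve level of 5.48, and 60 of them (50.8%) lay above the naïve median of all regions. A median of 21 regions lay within 500 kb of a member alone and 67.5 within 500 kb of a member in a run, a difference that the definition of a run in part sets. The CCI minus naïve difference was 1.11 at the median for members alone and 1.26 for those in runs.

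In the runs, the regions that missed the threshold were mostly higher after CCI too. The 21 runs spanned 18.1 to 850 kb (median 110 kb) and held 428 consensus regions, of which 424 had a higher mean after CCI. Over all regions, 44.5% had a higher mean after CCI. Runs surround members chosen in these same libraries, so the direction of their other regions is not independent of that choice. The 310 that were not members had a median CCI minus naïve difference of 0.89 (quartiles 0.68 and 1.09). Among these 310, 306 had a higher mean after CCI, and 249 (80.3%) had an unadjusted p below 0.05, counted without regard to direction. Of all regions, 8.59% had a p below 0.05 and a higher mean, a count that does regard direction. The median CFA minus naïve difference of the 310 was 0.05. In 18 of the 21 runs every region was higher after CCI. The pattern faded with distance: regions that were not members had a median CCI difference of 0.82 within 10 kb of a member, 0.48 at 10 to 100 kb, 0.00 at 100 kb to 1 Mb, -0.05 at 1 to 10 Mb and -0.09 beyond 10 Mb. The matching CFA medians lay between -0.01 and 0.04. Around members alone the CCI median was 0.50 within 10 kb (170 regions), and around members in runs it was 0.95 (200 regions).

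**Figure D2:**
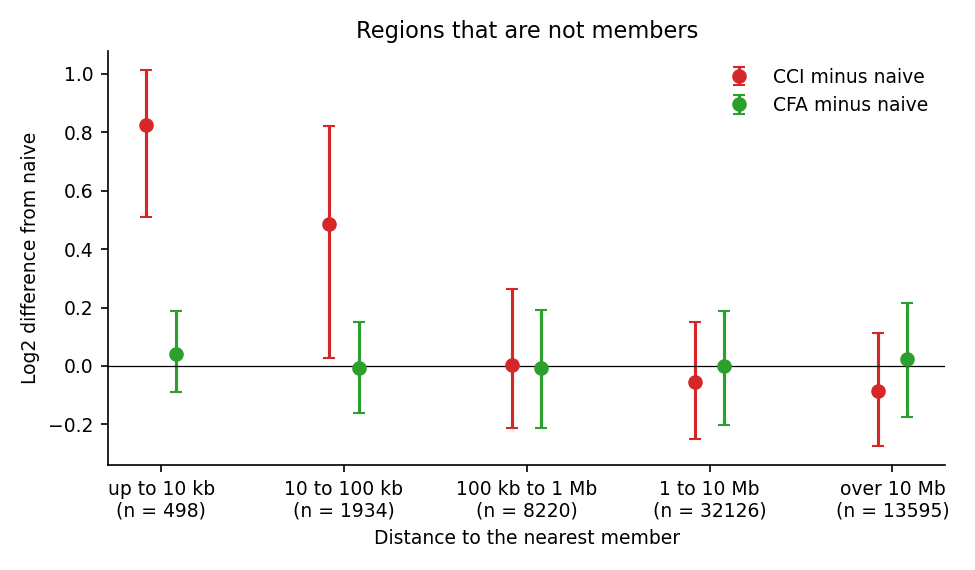
Log2 difference from naïve (vertical axis) of regions that are not members, by distance to the nearest member, for CCI (red) and CFA (green). Points are medians over regions and bars reach from the lower to the upper quartile, so neither is an error over rats. The CCI median falls from 0.82 within 10 kb to 0.00 at 100 kb to 1 Mb, and the CFA medians stay between -0.01 and 0.04.

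The longest run lay on chromosome 1, at chr1:180533660-181383328. It held 35 members among 102 regions, and all 102 had a higher mean after CCI. Their median difference was 1.18 (quartiles 1.01 and 1.30), with 1.33 for the members and 1.10 for the other 67. The middle region of this run was above the middle of the table in naïve ganglia, at 6.29. Relative to the naïve mean, the median over the 102 regions was 0.65, 1.49, 1.73, 1.27, 0.51 and 1.59 in CCI replicates 1 to 6. The naïve replicates stood at -0.32, 0.31 and 0.02. All CCI libraries were therefore above all naïve libraries, with CCI replicates 1 and 5 nearest to them. In the CFA table the same median was 0.15, 0.50, -0.16, 0.04, 0.10 and 0.62 in CFA a, CFA b and replicates 3 to 6, where CFA a and b are columns whose replicate number the labels leave unclear. These values overlap those of the naïve libraries.

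The stretch of high values did not end sharply at the outer members. Within 1 Mb before the run lay 21 regions, which together spanned 941 kb. Of these, 20 were higher after CCI, with a median of 0.93 over the 21 and 1 member among them. After the run, 14 of 17 regions up to the next run were higher, with a median of 0.35 and no member. That next run, chr1:181964499-182049223, held 4 members among 15 regions, all 15 higher after CCI, with a median of 1.09.

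**Figure D3:**
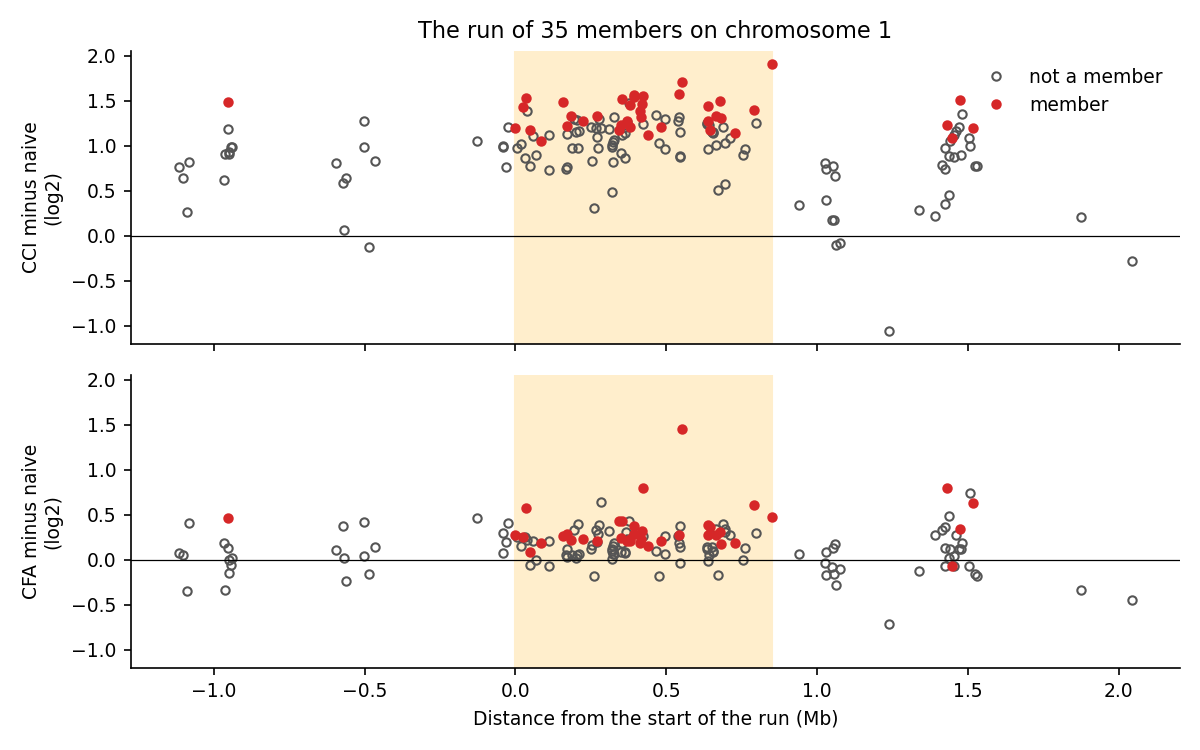
CCI minus naïve (top) and CFA minus naïve (bottom) log2 difference of each consensus region by distance in Mb from the start of the run of 35 members on chromosome 1, with members filled in red, other regions open and the run shaded. All 102 regions in the shaded stretch are above 0 after CCI, with a median of 1.18, and their CFA median is 0.21.

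The second longest run, chr13:33475654-33814160, held 11 members among 44 regions, again all higher after CCI, with a median of 1.07. The regions within 1 Mb of a run that are not members had a median of 0.10 here, and over the 21 runs this median ran from -0.10 to 0.88. It was 0.80 around the longest run and 0.81 around chr9:8351480-8476680, above that run's own 0.62. These medians include non-member regions of neighbouring runs, so they are not values outside runs. The run chr1:181964499-182049223 lies within 1 Mb of the longest run, and chr9:7473764-7506399 within 1 Mb of chr9:8351480-8476680. The runs of 5 members were chr12:229915-409733, chr19:27230408-27357635, chr2:156173233-156283729 and chr7:22323298-22406648, with medians over all their regions of 0.79, 0.97, 1.02 and 1.06. The remaining runs held 3 or 4 members each. Leaving aside the run on chromosome 8 described below, the CCI medians of the other 20 runs lay between 0.62 and 1.21. Their CFA medians had a range of -0.17 to 0.21.

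Of the runs with 4 members, chr2:49293106-49323091 and chr7:500171-536714 were short, at 30.0 and 36.5 kb, and had CCI medians of 1.09 and 1.06. The runs chr15:5392514-5511284, chr16:22010777-22159591 and chr7:2139824-2252991 were longer and held 24, 38 and 21 regions, with medians of 0.92, 0.84 and 0.81. The runs of 3 members were chr1:99067392-99115658, chr17:44190511-44306030, chr17:44407836-44469185, chr2:119095-286773, chr8:15590545-15608615, chr9:7473764-7506399, chr9:8351480-8476680 and chr9:11712841-11734179. Their medians ran from 0.62 for chr9:8351480-8476680, where 24 of 25 regions were higher after CCI, to 1.21 for chr8:15590545-15608615, where all 4 regions were. That last run had the lowest CFA median of all runs, at -0.17.

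The 6 CCI libraries contributed unequally. The median over the 426 members of the library minus the naïve mean was 0.86, 1.31, 1.49, 1.27, 0.85 and 1.41 in CCI replicates 1 to 6, and -0.11, 0.07 and 0.03 in naïve replicates 1 to 3. CCI replicates 3, 6, 2 and 4 were high and replicates 1 and 5 were low. Replicates 1 and 5 put 424 and 422 of 426 members above every naïve library. The members were chosen in these libraries, so this largely follows from the choice, and the matching share of all regions was not computed. Replicate 3 was the highest CCI library in 181 members, and replicates 5 and 1 were the lowest in 172 and 143.

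The spread between CCI libraries was wider in the runs than in members alone. Over members in runs, the median difference ran from 0.72 in CCI replicate 5 to 1.72 in replicate 3. Over members alone it ran from 0.90 in replicate 1 to 1.29 in replicate 3. The order hardly varied between runs: CCI replicate 3 was highest in 20 of 21 runs, and replicates 1 and 5 were the 2 lowest in 20 of 21. In the run on chromosome 8 assigned to Vom2r17 and Vom2r18, replicates 4 and 5 were the lowest.

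**Figure D4:**
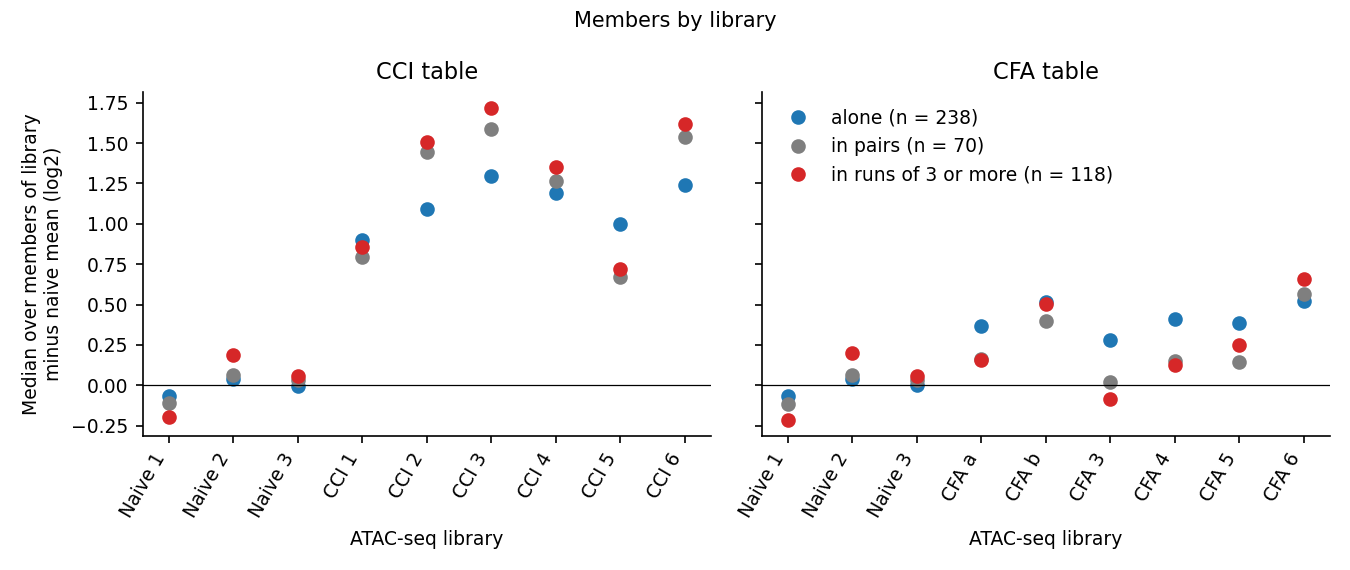
Median over members of the log2 difference between each ATAC-seq library and the naïve mean of its table, for members alone (blue), in pairs (grey) and in runs of 3 or more (red), in the CCI table (left) and the CFA table (right). CCI replicates 1 and 5 sit lowest among the CCI libraries, and the 3 classes lie farthest apart in replicates 2, 3 and 6.

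Among the CCI libraries, these differences were mostly larger where a library separated its high from its low regions less strongly. A signal ratio was taken from each library's steps, where a region's step is the number of distinct values below it in that library. If equal counts were given equal values, a step is a lower bound of the region's read count. Dividing the 90th percentile of a library's steps by the 25th gave 7.39, 6.24, 5.24, 6.20, 7.77 and 5.32 in CCI replicates 1 to 6, and 10.25, 7.97 and 9.10 in the naïve libraries. Every CCI library thus had a lower ratio than every naïve library, so ratio and group cannot be told apart. CCI replicates 3 and 6, with the lowest ratios, had the largest member differences, and replicates 5 and 1, with the highest, had the smallest. The CFA libraries ranged from 8.38 to 10.19, and their order was less regular. The lowest, replicate 6, had the largest median member difference in that table, 0.57. The highest, CFA a, had 0.26, whereas the smallest difference, 0.13, was in replicate 3 at a ratio of 9.47. Replicate 5, at a ratio of 8.53, had 0.31, below the 0.47 of CFA b at 8.70. The part of this ratio in the member differences was not tested. The median step of the members was 20 to 22 in the naïve, 33 to 44 in the CCI and 25 to 29 in the CFA libraries. Over all regions the median step was 49 to 56 in the naïve, 33 to 54 in the CCI and 44 to 59 in the CFA libraries.

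Membership changed when libraries were left out. Each of these fits also has fewer libraries than the main fit, and the part of that in the counts was not tested. Without 1 CCI library at a time, 232 to 368 of the 426 members remained below p 0.001 in the limma fit. The counts were 235, 267, 233 and 232 without CCI replicates 2, 3, 4 and 6, and 368 and 358 without replicates 1 and 5. Without naïve replicate 1, 2 or 3, the counts were 126, 186 and 152. With libraries of 2 runs only, in both groups, all 426 members were higher after CCI, with a median of 1.07. Of them, 424 had p below 0.05 and 48 had p below 0.001. These libraries are among those that chose the members, so the shared direction largely follows from the choice and is no test of it. The 4 CCI libraries of 1 run gave a median of 1.26.

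The members near the threshold show how little separates them from regions left out. Just inside lay chr14:48665324-48665682, assigned to Arap2, with p = 0.000999, chr2:49304022-49304566 with p = 0.000997 and chr13:102455873-102456392 with p = 0.000994. Their differences were 1.10 ± 0.26, 1.06 ± 0.25 and 1.01 ± 0.24 (SE). Just outside, each with p = 0.00101, lay chr10:88448769-88449306, chr18:13091525-13091735 and chr6:140398474-140398748. Their differences were 0.84 ± 0.20, 1.36 ± 0.32 and 0.84 ± 0.19.

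The 4 members with the largest differences form a run of their own at chr8:4288257-4338234, 50.0 kb long. The study pairs them with Vom2r18 and Vom2r17, members of a large family of vomeronasal receptor genes that detect pheromones. Genes of such families can resemble each other closely, and how uniquely reads map at this site was not tested. The regions on either side were not higher after CCI: the region before, chr8:4086309-4086684, had a difference of -0.15, and the region after, chr8:4440349-4441666, of -0.05.

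The first of the 4, chr8:4288257-4288665, had naïve values of 2.31, 1.47 and 0.62 and CCI values from 4.67 (median 5.13) to 5.55. The second, chr8:4292048-4292933, had naïve values of 0.51, 1.47 and 0.62 and CCI values from 5.15 (median 6.81) to 7.40. Both are assigned to Vom2r18, and in both the groups are far apart.
The third, chr8:4322772-4323450, had naïve values of 1.47, 2.55 and 1.58 and CCI values from 5.17 (median 5.76) to 6.33. The fourth, chr8:4337259-4338234, had naïve values of 0.51, 0.11 and 0.11 and CCI values from 4.79 (median 5.96) to 6.70. Both are assigned to Vom2r17, and every CCI library again stood above every naïve one.

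In the naïve libraries these 4 regions were at the bottom of the table, at steps 0 to 6, whereas the CCI libraries had steps 25 to 144. The lowest values of the scale are set by the normalization, so the differences of 3.64 ± 0.31, 5.64 ± 0.46, 3.88 ± 0.28 and 5.59 ± 0.36 are not read as fold changes. Their adjusted p, from limma, ran from 0.000134 to 0.000732, and all 4 stayed below p 0.001 without any 1 library. The same libraries chose these regions, so neither value is an independent test of them. After CFA the same regions had differences of 2.03 ± 0.35, 4.01 ± 0.71, 2.35 ± 0.37 and 3.45 ± 0.72, each with a limma adjusted p of 0.0858 against the same 3 naïve libraries.

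CFA replicate 3 stood below the other CFA libraries at this site. In the fourth region CFA replicate 3 had 1.21, while the other 5 CFA libraries had 4.49 to 5.24 and the naïve libraries 1.07, 0.59 and 0.59 in that table. In the second region it had 2.63 against 5.22 to 6.55 in the other 5. It was the lowest CFA library in all 4 regions, at steps 1 to 11, and the other 5 were at steps 11 to 90. In the third region the gap was small, from 3.55 to 3.84. Of the 9 CFA fits that leave out 1 library, the fourth region kept a p below 0.001 in 1, that without CFA replicate 3, where its difference was 4.04.

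**Figure D5:**
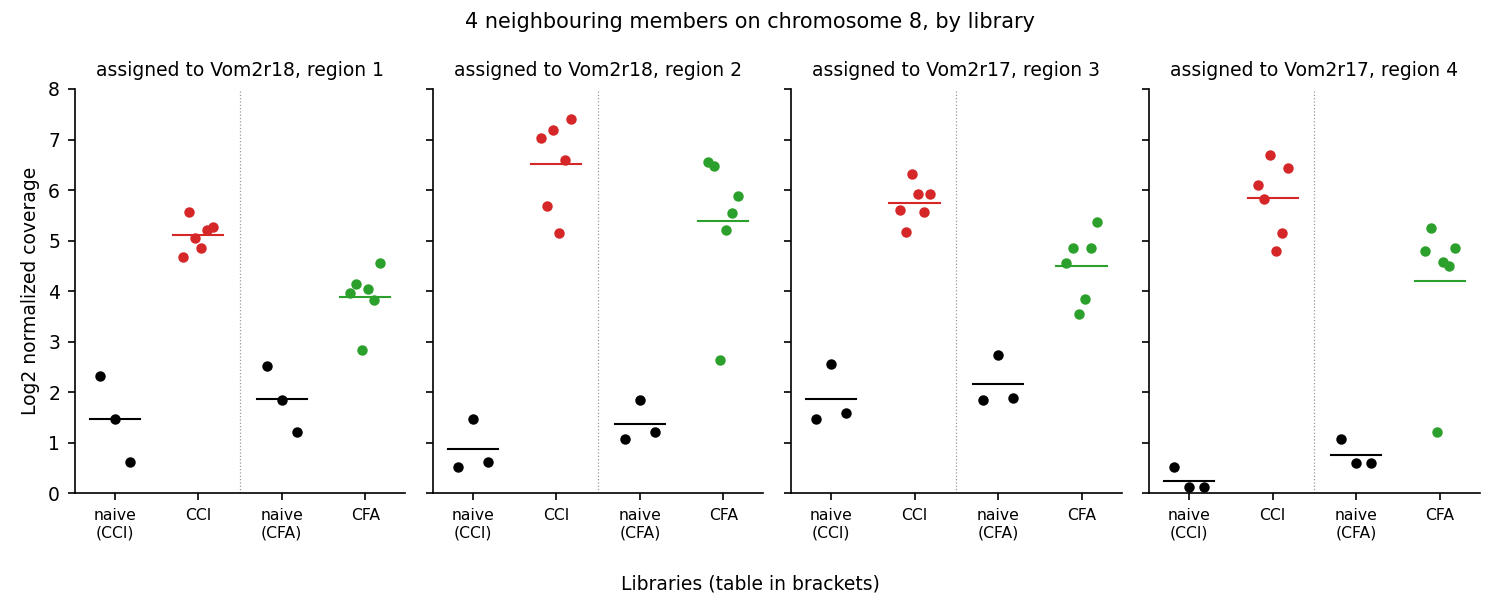
Log2 normalized coverage of the 4 neighbouring members on chromosome 8 in each library, with naïve and CCI libraries from the CCI table and naïve and CFA libraries from the CFA table, points for libraries and lines for group means. The naïve libraries lie at 0.11 to 2.73, all CCI libraries at 4.67 or above, and CFA replicate 3 lies below the other CFA libraries in each region.

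The 10 members with the smallest p comprise these 4 and 6 weak regions elsewhere. All 10 were 274 to 975 bp wide with naïve means of at most 3.75, and all stayed below p 0.001 without any 1 library. They were picked for the smallest p in these same libraries, so that largely follows from the choice. The region chr17:42278035-42278309 had naïve values of 3.39, 3.73 and 3.28 and CCI values from 4.55 (median 4.74) to 4.87, a difference of 1.26 ± 0.16 with a limma adjusted p of 0.0392. The region chr2:107855052-107855418 had naïve values of 3.49, 3.73 and 3.60 and CCI values from 4.67 (median 4.89) to 5.27, a difference of 1.32 ± 0.17. In both regions the 6 CCI libraries were tightly grouped, and both had CFA differences, 0.27 ± 0.23 and 0.28 ± 0.20, close to their SE.

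The other 4 were chr2:286492-286773 with 1.67 ± 0.22, chr2:1113372-1113850 with 1.51 ± 0.21, chr1:59366869-59367224 with 1.44 ± 0.19 and chr13:10820032-10820423 with 1.58 ± 0.22. Chromosome 2 thus held 3 of the 10, and 2 of these start within its first 5 Mb. The study names the last after Olr1065, an olfactory receptor gene. Its naïve values were 3.14, 3.19 and 2.82 and its CCI values ran from 3.93 (median 4.67) to 4.99.

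At the high end of the scale, the members with the highest naïve levels were chr1:55732095-55733033 and chr14:47987847-47989305. The former had naïve values of 9.02, 9.66 and 9.17 and CCI values from 9.73 (median 10.14) to 10.26. The latter had naïve values of 8.61, 9.47 and 9.06 and CCI values from 9.56 (median 10.13) to 10.22. The CCI libraries were higher in both, by 0.81 ± 0.19 and 0.97 ± 0.21, and both lost their place below p 0.001 in 7 of the 9 fits that leave out 1 library.

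The member with the largest spread over the CCI libraries outside the run on chromosome 8 was chr4:15607260-15607512. Its naïve values were 3.02, 3.03 and 2.99. CCI replicate 1 had 3.23, and the other 5 CCI libraries had 4.60 to 5.17. The difference of 1.53 ± 0.33 therefore rests on 5 of the 6 libraries.

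In the CFA table, which shares its naïve libraries with the CCI table, the members moved less. Their median CFA minus naïve difference was 0.32 (quartiles 0.16 and 0.52, range -0.57 to 4.01), against 0.01 over all regions. The per-library medians were 0.26, 0.47, 0.13, 0.27, 0.31 and 0.57 in CFA a, CFA b and replicates 3 to 6. In percentiles within a library, the median member stood at 9.63 to 10.09 in the naïve libraries, at 16.2 to 27.4 in the CFA libraries and at 37.3 to 54.4 in the CCI libraries. The CFA libraries thus lay between the other groups, without overlap, in this measure. The members were chosen for being low in these same naïve libraries and high in these same CCI libraries. Neither the size of the CFA difference nor the middle place of the CFA libraries is therefore independent of that choice. How much of this order the choice sets was not tested.

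The median CFA difference was 0.38 for members alone and 0.26 for members in runs, beside 1.11 and 1.26 after CCI. Single libraries did not all share these orders. After CFA, replicate 3 had 0.28 for members alone and -0.08 for members in runs, while replicate 6 had 0.52 and 0.66 and CFA b 0.52 and 0.50. After CCI, replicates 1 and 5 had the lower median in the runs, with 0.85 against 0.90 and 0.72 against 0.998.

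The study lists 21 members, assigned to 19 genes, as more accessible in both models, which is the reason they are named here. The list was made from regions with p below 0.001 in both models, so that all 21 had a CFA p below 0.001, as 0.565% of all regions did in the higher direction, says nothing further about them. Of the 21, 16 lay alone, and 17 were in the lowest 10% by naïve level. Their CCI differences ran from 0.71 to 5.64 (median 1.22) and their CFA differences from 0.67 to 4.01 (median 0.88). None passed an adjusted p of 0.05 after CFA, where limma gave 0.0858 to 0.0879. Of the 21, 5 stayed below p 0.001 in all 9 CFA fits that left out 1 library, and 10 did so after CCI.

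The members with cloned fragments are among them. The one assigned to Mtdh had naïve values of 3.85, 4.37 and 4.26 and CCI values from 4.67 (median 5.07) to 5.27, a difference of 0.87 ± 0.19. In the CFA table its naïve values were 4.05, 4.57 and 4.44 and its CFA values ran from 5.19 (median 5.35) to 5.60, a difference of 1.001 ± 0.14. Neither model overlapped with the naïve libraries.
The one assigned to Rrm2b had naïve values of 4.37, 4.51 and 4.58 and CCI values from 4.99 (median 5.36) to 5.82, a difference of 0.95 ± 0.20. After CFA its values ran from 5.07 (median 5.45) to 5.73, and the difference was 0.75 ± 0.15.
The one assigned to Arap2 had naïve values of 3.49, 4.09 and 3.41, CCI values from 4.27 (median 4.61) to 5.32 and CFA values from 4.49 (median 4.84) to 5.15. Its differences were 1.10 ± 0.26 after CCI and 0.96 ± 0.20 after CFA, and its highest naïve library, replicate 2, stayed below the lowest library of each model.

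Expression of the assigned gene could be read for 3 of the 19 genes, Pcdh9, Kif13b and Lpar1. These could be matched because they are in the study's lists of differentially expressed genes, so they are a selected part of the 19. Pcdh9 codes for a protocadherin, an adhesion molecule of neurons. Its member, chr15:75876479-75876957, had naïve values of 3.02, 3.43 and 3.12 and CCI values from 4.09 (median 5.05) to 5.47, and its differences were 1.79 ± 0.27 after CCI and 0.83 ± 0.18 after CFA. Kif13b codes for a kinesin that moves cargo along microtubules. Its member, chr15:48090366-48090685, had naïve values of 2.82, 3.31 and 3.41 and CCI values from 3.83 (median 4.36) to 4.81, with differences of 1.20 ± 0.23 and 1.10 ± 0.19. Lpar1 codes for a receptor of lysophosphatidic acid, a lipid studied in neuropathic pain, and its member, chr5:75716406-75716663, had differences of 1.22 ± 0.22 and 0.88 ± 0.16. Epha3 codes for a receptor of ephrins, which guide axons, and its member, chr11:1269991-1270529, had 1.26 ± 0.20 and 0.69 ± 0.15. In the 2 CFA RNA-seq libraries, Pcdh9 was at 62.2 ± 5.58 CPM (SD, n = 2), Kif13b at 60.1 ± 4.95 CPM and Lpar1 at 129 ± 7.31 CPM. No naïve or CCI RNA-seq library was analysed here, so the RNA of these genes was not compared between groups.

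The member assigned to Cp, the gene for the copper carrier ceruloplasmin, was the strongest region of the list in naïve ganglia. It lies at chr2:104740823-104741617, had naïve values of 6.76, 6.72 and 6.66 and CCI values from 7.33 (median 7.81) to 8.21, and had differences of 1.11 ± 0.19 after CCI and 0.67 ± 0.11 after CFA. It was below p 0.001 in all 9 fits of both comparisons that left out 1 library.

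Among the remaining members of the list, Map2k5 codes for a kinase that activates ERK5, Cobl for an actin nucleator, Slc46a3 for a lysosomal transporter, Slc24a5 for a cation exchanger of pigment cells, Sh2d4a for an SH2 adaptor and Clec4m for a C-type lectin. The member assigned to Map2k5, chr8:68261923-68262408, had differences of 1.07 ± 0.16 after CCI and 0.81 ± 0.18 after CFA. The member assigned to Slc46a3, chr12:8713579-8713997, had 1.58 ± 0.31 and 1.31 ± 0.19, and that assigned to Clec4m, chr12:3340812-3341234, had 1.49 ± 0.27 and 0.83 ± 0.17. All 3 had the larger value after CCI.
The member assigned to Cobl, chr14:93768297-93768703, had 0.75 ± 0.17 after CCI and 0.996 ± 0.18 after CFA. The members assigned to Slc24a5, chr3:117326358-117326776, and Sh2d4a, chr16:23432936-23433376, had nearly equal values, 0.86 ± 0.15 and 0.87 ± 0.16 for the former and 0.71 ± 0.15 in both comparisons for the latter. These 3 are the members of the list, beside that assigned to Mtdh, without a larger value after CCI, and the tables were normalized separately, so the values stand side by side without a test. The last 2, assigned to the uncharacterized genes LOC500846 and LOC498155, lie at chr7:69057806-69058124 and chr12:17820620-17821049 and had CCI differences of 1.20 ± 0.24 and 1.41 ± 0.23 and CFA differences of 1.14 ± 0.25 and 0.81 ± 0.18.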

How the data were processed

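The deposited ATAC-seq tables hold log2 normalized coverage of each consensus region, with 1 table for CCI and 1 for CFA, each with the same 3 naïve libraries. According to the study's methods, Bowtie2 aligned the reads to rn6, duplicates and poorly mapped reads were dropped, insertion sites were shifted for Tn5 and downsampled, and peaks were called with MACS2 per library and kept where enough libraries of a group had them. Within a table all columns share nearly the same distribution, and the normalization behind this is not given in the sources used here. A library with 2 sequencing runs has 1 column and counts as 1 replicate. For RNA-seq, the authors gave a whole-number count for each Ensembl gene, with totals of 10520647 and 28825688 counts. The submitters' processing notes name CASAVA 1.8.2 and HISAT2 among the tools. ATAC-seq depth cannot be read from normalized values, so no counting interval is given.

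All 56810 regions were fitted in limma 3.58.1 (R 4.3.3, lmFit and eBayes, default prior), with no filter and no pseudocount, once per table, and adjusted by Benjamini-Hochberg over all regions. The script was tested on simulated data. A difference is the group mean minus the mean of the naïve libraries of the same table, ± its SE from limma. Runs, widths, percentiles, steps and figures were computed in Python 3.11.15 with numpy 2.4.6, pandas 2.3.3 and matplotlib 3.10.9. The columns CFA a and CFA b bear names that the labels also give to RNA-seq samples, so they were used as CFA without a replicate number. CPM are counts scaled to a common library total, computed from the deposited counts. Gene symbols were matched through the study's lists of differentially expressed genes.

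The members, the gene lists and the tests were chosen with earlier results of these data known. Named regions are the 10 members with the smallest p, the members in the study's list of regions changed in both models, its cloned members, 3 regions on each side of the threshold, every run of 3 or more members, the 2 narrowest and 2 widest members, the 2 lowest and 2 highest in naïve mean, and the 3 with the largest SD over the CCI libraries. Alternatives were other priors, weights, normal scores of ranks, removal of low regions, stricter and looser thresholds, a replicate block, libraries of 2 runs only, other distances and single libraries left out. The sequence and annotation of rn6 were not used here, so position in genes, motifs and base composition were not analysed here.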

Additional observations from a re-analysis of the deposited data

Results flagged for a closer look

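For each named member and each run, the highest and lowest of the 6 CCI or 6 CFA values were compared with the nearest other value, over 114 groups of 6 libraries. In 8 of them the gap, as a share of the group's whole range, was larger than Dixon's 95% critical value, and chance alone flags about 1 group in 20. In 5 of the 8 the distant library was CFA replicate 3, always as the lowest. It was at 2.63 in chr8:4292048-4292933, with the next CFA library at 5.22 (gap over range 0.660), and at 1.21 in chr8:4337259-4338234, with the next at 4.49 (0.814). The run these regions belong to, chr8:4288257-4338234, gave 0.747 for its median difference, which was 1.11 in CFA replicate 3 and 3.01 in the next library. It was also lowest in chr12:8713579-8713997, assigned to Slc46a3, at 4.43 against 4.97 (0.657), and in the run chr15:5392514-5511284, at -0.31 against 0.07 (0.627). CFA a was lowest in chr7:69057806-69058124, assigned to LOC500846, at 3.97 against 4.75 (0.643).

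Of the CCI libraries, replicate 5 was lowest in chr1:55732095-55733033, at 9.73 with the next at 10.11 (0.718), and replicate 1 in chr4:15607260-15607512, at 3.23 with the next at 4.60 (0.707). In no named member or run did all CCI libraries lie above the naïve mean and all CFA libraries below it.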

How the results depend on the processing

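The median CCI difference of the members was recomputed with normal scores, libraries of 2 runs only, the replicate block, without single libraries and without runs. It moved by less than the spread between libraries (SD 0.28), from 1.07 with libraries of 2 runs to 1.41 with normal scores. The median CFA difference, recomputed with normal scores and without single libraries, also moved by less than that spread (0.27 to 0.43, SD 0.16). The median width of the members stayed between 386.5 and 452 bp with p below 0.0001, with an adjusted p below 0.05 and without runs. Counts moved more. In place of 426 gained regions there were 955 with an intensity trend, 808 with sample quality weights, 89 with libraries of 2 runs only, 2110 at p below 0.01, 64 at p below 0.0001 and 9 at an adjusted p below 0.05. Without 1 library there were 163 to 881: 732, 264, 275, 881 and 257 without CCI replicates 1, 2, 4, 5 and 6, and 163, 269 and 190 without naïve replicates 1, 2 and 3. Of the members themselves, 126 to 368 remained without 1 library, 48 with libraries of 2 runs only, and 252 where the lowest 25% of regions by mean level, which include 174 members, were left out. Members with another member close by numbered 63 at 10 kb.

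The replicate numbers are those of the sample titles, and the CCI coverage columns bear other numbers. Deviations of same-numbered CCI and naïve libraries correlated at -0.06, 0.07 and -0.03, and 1 of 3 CCI libraries correlated best with its own number. These values gave no sign of pairing, but 3 pairs are too few to decide whether the libraries were paired. With replicate number as a block, on the 6 libraries that share one, 370 regions were gained and 158 members remained; without the block the same 6 libraries gave 227 and 137. For CFA, no paired analysis was possible because a single CFA column shares a number with a naïve library beyond doubt.

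Named members kept their direction after CCI in all fits without 1 library, and 19 of 35 fell above p 0.001 in at least 1. The members were chosen in these same libraries, so the kept direction largely follows from the choice. After CFA, 7 members with differences near 0 changed sign in 13 of 315 fits, none of them called. Their ranges were -0.0413 to 0.22 for chr13:102455873-102456392, -0.0892 to 0.30 for chr14:47987847-47989305, -0.0208 to 0.45 for chr18:41907819-41911294, -0.0829 to 0.21 for chr1:147393306-147393489, -0.14 to 0.12 for chr1:55732095-55733033, -0.27 to 0.00041 for chr2:161574589-161578303 and -0.0738 to 0.0496 for chr2:49304022-49304566. The number of reads behind weak members is not known beyond the steps given.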
